A study of Mus musculus with 12 samples.

Results

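Livers of mice labelled as hepatocyte-specific knockouts of Sephs1 were compared with control livers, on 6 of the 12 Affymetrix mouse arrays of the series, 3 livers per group. Sephs1 encodes selenophosphate synthetase 1 (SPS1). Every gene with a probe set of its own was included, represented by whichever of its probe sets was brightest on average, which gave 18193 genes. All livers came from male C57BL/6 mice at 3 months of age. The knockout mice carried Cre recombinase under the albumin promoter (Alb-Cre), which acts in hepatocytes. Kupffer cells, endothelial cells and stellate cells therefore keep the gene. The control genotype is not described further in the labels, and neither is the deleted part of Sephs1. The other 6 arrays held F9 cells, an embryonal carcinoma line, and are not described here.

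Selenium reaches selenoproteins as selenophosphate, which the paralog selenophosphate synthetase 2 (gene Sephs2) makes in mammals. SPS1 does not make selenophosphate and is known for its part in redox balance and cell survival. The hepatocyte is the secretory and metabolic cell of the liver: it makes most plasma proteins, handles lipids, glucose, bile acids and amino acids, and clears foreign compounds through cytochrome P450 enzymes, conjugating enzymes and transporters, many of them under nuclear receptors such as the pregnane X receptor.

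The tissue label held against its markers. Albumin (Alb) was at 15.58, 15.53 and 15.53 in the livers labelled knockout, against 14.77, 15.35 and 15.31 in control livers (log2 of array signal, as for all levels below). Alb was among the top 1% of genes by level. Summed on the linear scale, where the 2%-trimmed mean of every array was 500, 11 hepatocyte markers gave 397527 to 415490 in knockout-labelled livers, against 287834 to 350677 in controls. After quantile normalization, which gives all arrays the same distribution of values, the median difference of those markers was 0.04, against 0.25 as deposited. In bulk tissue, fewer cells of a type and less RNA per cell cannot be told apart.

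The targeted transcript did not separate the groups. Sephs1 was at 9.89, 10.05 and 10.15 in the livers labelled knockout, against 9.85, 9.74 and 9.93 in control livers, and these ranges overlap (difference 0.19, SE 0.14, adjusted p = 0.789, limma, a linear model fitted to all genes). The other probe sets of Sephs1 differed by 0.39, 0.20 and 0.47, none of them lower in knockout-labelled livers. A probe set outside the deleted part checks nothing, and the direction of every difference below rests on the labels. Sephs2 was at 14.58, 14.60 and 14.70 in knockout-labelled livers, against 14.48, 14.52 and 14.41 in controls. That difference of 0.16 became -0.02 after quantile normalization.

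Between the groups, 8 of the 18193 genes passed limma at an adjusted p under 0.05, 0.044% of those tested, 2 of them higher (0.011%) and 6 lower (0.033%). The 6 genes that fell were Glrx, Tmem176a, Nr1i2, Tmem176b, Kcnma1 and Mvp, and the 2 that rose were Tbx5 and Celf6. In each the groups did not overlap, as in 14.8% of all genes tested. With 1 array left out, 3 genes passed without knockout-labelled replicate 3 and 0 without any other. Among the brightest 25% of genes, those with a mean level of at least 9.67, groups separated more often: 1013 of 4549 (22.3%) did not overlap. Most of the genes described below come from that bright set, where the median SD within groups was 0.14, against 0.33 over all genes.

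Tmem176a and Tmem176b fell together and were the 2 of the 8 that belong to the brightest 25%. They encode related membrane proteins with 4 membrane-spanning segments, and they lie beside each other on chromosome 6 on opposite strands, Tmem176a within the annotated extent of Tmem176b. Their start regions are shown because they overlap: each window runs from 250 bases before the start to 50 after it (RefSeq, GRCm38.p6), and capitals mark the 155 bases that both windows share, on opposite strands. The Tmem176a window is chr6:48841233-48841532 on the plus strand and the Tmem176b window is chr6:48841088-48841387 on the minus strand.
Tmem176a: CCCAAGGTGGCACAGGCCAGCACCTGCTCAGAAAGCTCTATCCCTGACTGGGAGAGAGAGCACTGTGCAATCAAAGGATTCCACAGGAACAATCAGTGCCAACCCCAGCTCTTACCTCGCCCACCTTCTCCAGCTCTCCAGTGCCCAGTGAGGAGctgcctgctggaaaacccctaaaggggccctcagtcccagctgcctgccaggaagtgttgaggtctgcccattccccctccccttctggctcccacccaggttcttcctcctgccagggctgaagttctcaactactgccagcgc
Tmem176b: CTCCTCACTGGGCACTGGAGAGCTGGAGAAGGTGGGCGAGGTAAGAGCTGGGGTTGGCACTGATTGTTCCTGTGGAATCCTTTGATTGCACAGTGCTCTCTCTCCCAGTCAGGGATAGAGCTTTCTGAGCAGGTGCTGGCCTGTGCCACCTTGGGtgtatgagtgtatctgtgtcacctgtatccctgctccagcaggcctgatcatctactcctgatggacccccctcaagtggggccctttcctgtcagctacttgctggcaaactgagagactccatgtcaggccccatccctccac
Tmem176a was at 8.69, 8.88 and 9.25 in the livers labelled knockout, against 12.67, 12.62 and 12.86 in control livers. It fell by 3.77 (13.7-fold, SE 0.19, adjusted p = 0.022, limma). Its other 2 probe sets differed by -3.04 and -2.95. Every knockout-labelled value lay more than 3 log2 units below the lowest control value. Tmem176b was at 10.11, 10.08 and 10.38, against 12.61, 12.34 and 12.80 in controls, and fell by 2.40 (5.26-fold, SE 0.18, adjusted p = 0.046). After quantile normalization Tmem176a passed (-3.78, adjusted p = 0.036) and Tmem176b did not (-2.39, adjusted p = 0.062). Among 24 measured genes of the MS4A-like and tetraspan membrane proteins, these were the 2 that passed, and the median over all 24 was -0.21, against 0.03 for all genes tested. Averaging over probe sets gave a median of 0.02 for the 24.

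Glrx and Serpinf1 differed most among the named genes. Glrx encodes glutaredoxin 1, a thiol oxidoreductase that uses glutathione, and Serpinf1 encodes the secreted serpin PEDF, a plasma protein made by hepatocytes. Their start regions are shown for that reason. The Glrx window is chr13:75839635-75839934 on the plus strand, with the AP-1 motif TGANTCA in capitals. The Serpinf1 window is chr11:75422574-75422873 on the minus strand, with 2 copies of the nuclear receptor core site AGGTCA, read on either strand, in capitals.
Glrx: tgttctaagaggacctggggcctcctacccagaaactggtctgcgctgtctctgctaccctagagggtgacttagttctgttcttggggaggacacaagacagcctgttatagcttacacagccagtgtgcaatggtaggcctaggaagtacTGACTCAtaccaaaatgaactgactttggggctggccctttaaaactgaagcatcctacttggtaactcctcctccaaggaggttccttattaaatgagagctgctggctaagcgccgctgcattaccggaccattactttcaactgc
Serpinf1: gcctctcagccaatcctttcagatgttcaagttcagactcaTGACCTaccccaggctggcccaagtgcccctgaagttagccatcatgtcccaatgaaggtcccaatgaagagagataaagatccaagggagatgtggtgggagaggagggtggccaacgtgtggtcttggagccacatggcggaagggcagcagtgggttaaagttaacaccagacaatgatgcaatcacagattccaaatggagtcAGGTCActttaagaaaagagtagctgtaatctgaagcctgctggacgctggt
Searched on both strands, TGANTCA occurred in 7.93% of 27025 such windows and AGGTCA in 16%, and the matches shown do not overlap each other. These matches describe the letters of the window and nothing more. Glrx was at 5.33, 5.37 and 6.04 in the livers labelled knockout, against 11.26, 10.78 and 11.03 in control livers (43.5-fold lower, -5.44, SE 0.25, adjusted p = 0.022). It was the other gene that passed after quantile normalization (adjusted p = 0.036). Serpinf1 was at 7.29, 8.53 and 9.54, against 14.31, 14.34 and 14.52 in controls. The knockout-labelled livers differed among themselves by over 2 log2 units, and each was still far below every control. Serpinf1 therefore missed the threshold (-5.93, SE 0.57, adjusted p = 0.097), and its second probe set differed by -6.09. Of the 19 serpin genes measured, the next lowest non-overlapping members were Serpina3n (-0.25) and Serpind1 (-0.22), the genes of an acute phase antiproteinase and of heparin cofactor II.

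Nr1i2 encodes the pregnane X receptor (PXR), the nuclear receptor that answers drugs and bile acids. It was at 6.00, 6.31 and 6.66 in the livers labelled knockout, against 9.76, 9.94 and 9.95 in control livers, and fell by 3.56 (11.8-fold, SE 0.20, adjusted p = 0.027). Its second probe set differed by -5.15. It was the 1 gene of 32 measured nuclear receptors that passed, and the median over the 32 was -0.01. Hnf4a, a master regulator of hepatocyte identity, had a difference of 0.29 (0.21 after quantile normalization), and Esrrg, an estrogen-related receptor gene, one of -1.68 with an SE of 0.81.

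Values of 4 genes that PXR is known to induce are given beside it; they are no complete list, and none passed without the trend. Cyp2c55, a P450 that acts on fatty acids, was at 11.74, 11.94 and 11.53 in the livers labelled knockout, against 8.42, 9.58 and 9.03 in control livers. Its difference of 2.72 (6.61-fold, SE 0.32) was the highest of the named genes of the brightest 25%, without overlap, at an adjusted p of 0.126. Cyp3a11, the main drug-metabolizing P450 of mouse liver, differed by 0.42 as deposited and by 0.06 after quantile normalization. Slco1a4, an organic anion uptake transporter, was at 7.24, 6.95 and 7.78 in knockout-labelled livers, against 10.92, 10.29 and 10.33 in controls (-3.19, SE 0.29, adjusted p = 0.097). Cyp2c55 and Slco1a4 thus lay on opposite sides, each without overlap on both scales. Cyp2b10 was at 9.19, 6.94 and 8.54, against 8.96, 8.96 and 8.88 in controls, and its groups overlapped. Cyp3a11 and Cyp2b10 were picked after their values were seen.

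Mvp, the gene of the major vault protein, fell by 1.93 (3.8-fold, SE 0.14, adjusted p = 0.043). It was at 7.08, 7.26 and 7.18 in the livers labelled knockout, against 8.96, 9.23 and 9.10 in control livers. Tbx5, a T-box transcription factor of heart and forelimb, was at 6.88, 7.33 and 6.94, against 3.997, 4.25 and 4.07 in controls, and rose by 2.94 (SE 0.18, adjusted p = 0.027). Celf6, the gene of a brain-enriched RNA-binding protein, was at 5.09, 5.14 and 5.12, against 3.35, 3.27 and 3.17 in controls, and rose by 1.85 (SE 0.12, adjusted p = 0.029). Both genes that rose are dim, in the lower 50% of genes by level. Kcnma1, a potassium channel gene, was at 3.74, 4.09 and 3.82, against 6.20, 6.25 and 6.30 in controls, and fell by 2.37 (SE 0.15, adjusted p = 0.027). That was the value of 1 probe set: 4 further ones, all dim, gave 0.53 to 2.68, so the direction of Kcnma1 depends on the choice.

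**Figure D1:**
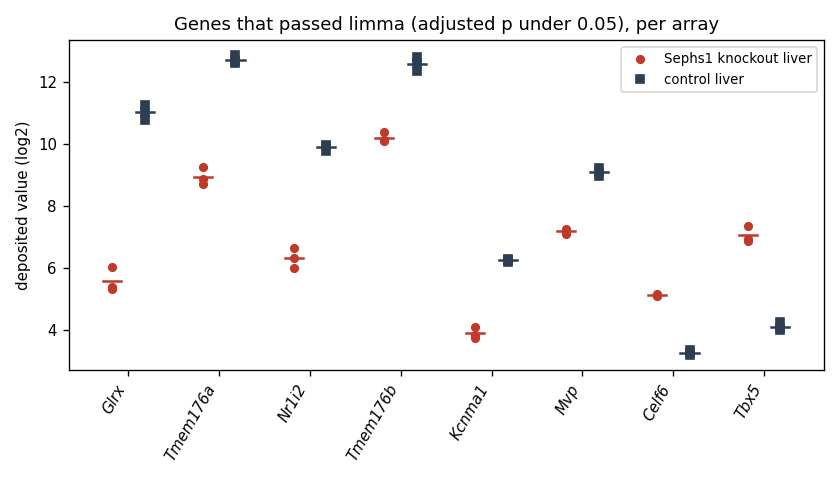
Deposited log2 values of the 8 genes that passed limma, one point per array, with knockout-labelled livers (circles) left of control livers (squares) and a bar at each group mean. The 6 genes on the left fell, by 1.93 for Mvp to 5.44 for Glrx, and Celf6 and Tbx5 rose, with no overlap of groups in any gene.

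Bright genes were described further by whether the groups overlapped. In the brightest 25%, 587 genes (12.9%) lay higher and 426 (9.36%) lower without overlap as deposited. Without overlap on both scales, 420 lay higher (9.23%) and 371 lower (8.16%). The bright genes described next are the 15 highest and 15 lowest of those without overlap on both scales. The limit of 9.67 applies to the mean over all 6 arrays, and 9 of the 15 lowest had a knockout-labelled mean under it, while 2 of the 15 highest had a control mean under it. These genes were bright through 1 group only, so the sizes of the named differences in the 2 directions are not set against each other.

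Of the 15 lowest, 7 that encode enzymes or a peroxisomal channel come first. Ldhd, the gene of mitochondrial D-lactate dehydrogenase, was at 8.48, 8.76 and 9.08 in the livers labelled knockout, against 11.81, 11.44 and 12.42 in control livers (8.7-fold lower, -3.12, SE 0.31, adjusted p = 0.098). Its second probe set differed by -2.28 after quantile normalization. Hnmt, which methylates and inactivates histamine, was at 8.49, 7.45 and 8.99, against 11.65, 11.33 and 11.41 (-3.15, SE 0.41, adjusted p = 0.148). Gda, the gene of guanine deaminase in purine breakdown, was at 9.29, 9.32 and 9.39, against 10.97, 10.81 and 10.72 (-1.50, SE 0.13, adjusted p = 0.073). In these 3 genes every knockout-labelled liver lay more than 1 log2 unit below every control. Rdh16f2, of the retinol dehydrogenase 16 family, was at 10.37, 10.35 and 10.29, against 12.46, 12.07 and 12.76 (-2.09, SE 0.20, adjusted p = 0.097). Vnn3, of the vanin pantetheinases, differed by -1.81 (SE 0.20), Gsta4, a glutathione transferase for lipid aldehydes, by -1.85 (SE 0.39), and Pxmp2, a peroxisomal membrane channel, by -1.53 (SE 0.16).

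The next 5 encode proteins of the cell surface, transport, signalling or complement. Pigr, the receptor that carries polymeric immunoglobulin across epithelia into bile, was at 12.42, 9.85 and 12.89 in the livers labelled knockout, against 14.00, 14.41 and 14.37 in control livers (-2.54, SE 0.82, adjusted p = 0.615). A single liver held the very low value, and the other 2 were still below the controls. Tmem30b, a subunit of phospholipid flippases, was at 9.91, 9.25 and 9.77, against 11.79, 11.55 and 11.50 (-1.97, SE 0.22, adjusted p = 0.120). Slc22a18, a solute carrier of an imprinted domain, differed by -1.56 (SE 0.21), and its second probe set by -1.35. Ikbkb, the kinase IKK-beta of NF-kappaB signalling, differed by -1.43 (SE 0.20). Masp1, a serine protease of the lectin pathway of complement, differed by -1.61 (SE 0.37), while 4 dimmer probe sets of the gene differed by -0.47 to 0.12. As deposited, the lists to which some of these genes belong showed no such lean. Of 30 solute carriers (median -0.05) 4 lay higher and 4 lower without overlap. Of 22 complement genes (median 0.07) 3 lay higher and 2 lower. Over all genes the shares were 8.42% and 6.36%. After quantile normalization both medians were negative (-0.08 and -0.04). Each list then had 2 genes higher and 4 lower without overlap, against 7.83% and 6.78% of all genes.

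Among 27 glutathione and glutaredoxin genes, 10 lay higher and 3 lower without overlap as deposited, and 7 and 3 after quantile normalization. Over all genes the shares were 8.42% and 6.36% as deposited, and 7.83% and 6.78% after quantile normalization. In the brightest 25%, which holds 23 of the 27, the shares were 12.9% and 9.36%, and 10.6% and 9.85%. All 5 Gstm genes of the 27 (mu-class glutathione transferases, picked after their values were seen) lay higher without overlap on both scales. None of these Gstm genes passed without the trend. Gstm3 was at 13.30, 14.00 and 13.46 in the livers labelled knockout, against 12.06, 12.03 and 12.12 in control livers (2.87-fold, 1.52, SE 0.21, adjusted p = 0.179). Gstm2 was at 11.57, 11.73 and 11.42, against 10.36, 10.61 and 10.58 (1.05, SE 0.15, adjusted p = 0.181). Gstm1 differed by 0.78, Gstm6 by 0.57, Gstm4 by 0.38, and Gsta2, of the alpha class, by 1.12. Other transferases differed the other way: Gsta4 and Gsto1 (-1.05, SE 0.14), an omega-class member. Members of this family are close in sequence, so probe sets may not tell them apart fully.

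The remaining bright genes with higher values have varied functions. Igfbp2, a secreted carrier of insulin-like growth factors, was at 14.58, 14.48 and 14.69 in the livers labelled knockout, against 13.56, 13.43 and 13.91 in control livers (0.95, SE 0.17, adjusted p = 0.276). Igfals, another gene of the insulin-like growth factor axis, differed the other way, at 10.22, 9.91 and 9.95, against 10.90, 11.003 and 11.38 (-1.07, SE 0.19, adjusted p = 0.262). Neither pair of groups overlapped. Ddc, the aromatic amino acid decarboxylase gene, was at 12.02, 13.22 and 12.20, against 10.85, 11.66 and 10.93 (1.33, SE 0.40). Rarres1, a retinoic acid responsive gene, differed by 0.93 (SE 0.14), Plin5, a coat protein of lipid droplets, by 0.86 (SE 0.18), and the noncoding RNA gene Zfas1 by 0.99 (SE 0.24). Smim22 differed by 1.24, Plekhb1 by 0.85 and Lrrc28 by 0.81. The second, dimmer probe set of Smim22 differed by 0.03, and the other 2 probe sets of Lrrc28 by -0.31 and -0.21. Of these 15 genes with higher values, 0 passed limma at an adjusted p under 0.05 without the trend. All but Atf5 (0.0888) had an unadjusted limma p under 0.05, but they were chosen for the size of their differences. Over all genes tested 1325 had such a p (7.28%).

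**Figure D2:**
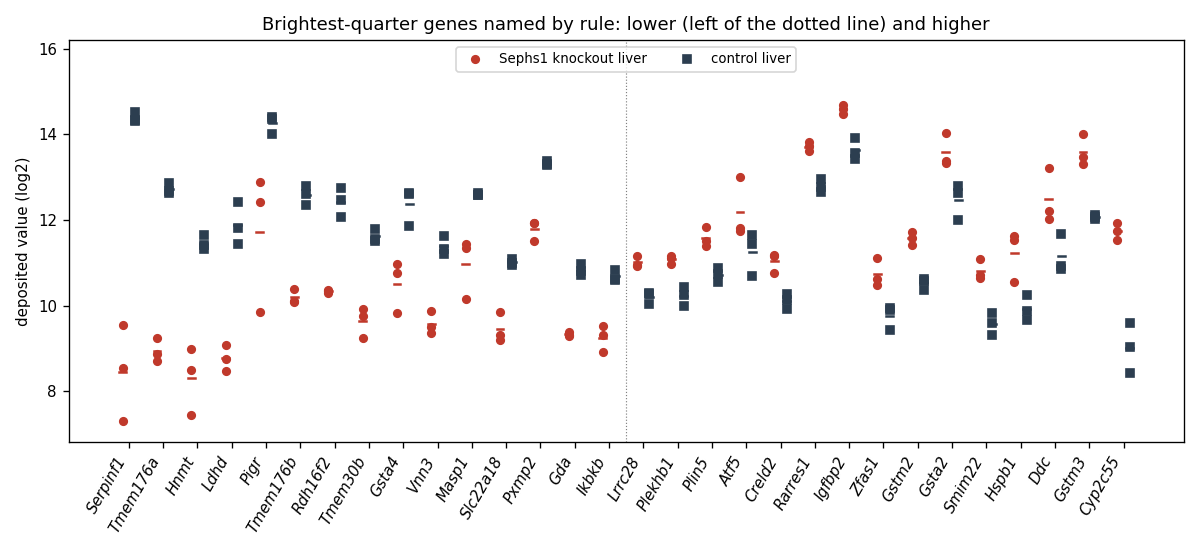
Deposited log2 values of the 15 lowest and 15 highest non-overlapping genes of the brightest 25%, one point per array, with knockout-labelled livers (circles) left of control livers (squares) and bars at group means. Serpinf1 had the largest difference (-5.93) with knockout-labelled livers spread over 7.29 to 9.54, and Cyp2c55 (2.72) was the highest on the right.

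The spread of the array signal depends strongly on its level, and a fit that lets the variance follow the level (limma with an intensity trend and a robust prior) called more genes. It called 89 genes (0.489%), 30 higher (0.165%) and 59 lower (0.324%), and 51 of them were in the brightest 25% (1.12%). They include 6 of the 8 genes above, without the dim Celf6 and Kcnma1. The groups did not overlap in any of the 89, and in 88 of them on both scales. With quantile normalization the trend fit called 77 genes, 75 of them shared. With 1 array left out it called 47 to 72, and 35 genes were called in every such fit. Fitted without the dimmer 50% of genes and without a trend, limma called 67 of 9096 genes (0.737%), 58 of them among the 89.

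Passing with the trend were Serpinf1 (adjusted p = 0.0186), Slco1a4 (0.000229), Ldhd (0.000229), Rdh16f2 (0.000229), Hnmt (0.00637), Pxmp2 (0.000255), Gda (0.000255), Cyp2c55 (0.000922), Gstm3 (0.0015), Gstm2 (0.00311), Igfbp2 (0.00691) and Igfals (0.0114). Rarres1 (0.0027), Smim22 (0.0089), Lrrc28 (0.0177), Plekhb1 (0.0195) and Plin5 (0.0264) passed with the trend as well. Of these, Lrrc28, Plekhb1 and Plin5 were lost with 1 array left out (adjusted p up to 0.0956, 0.105 and 0.153). Without 1 array the adjusted p of Serpinf1 reached 0.124, and that of Slco1a4 stayed between 0.000312 and 0.00443. With 1 array left out the trend calls of Igfals (adjusted p up to 0.0621) and, of the genes below, Bmf (0.0744), Hpgd (0.075), Nox4 (0.0992) and Cdkn1b (0.114) were lost too. Further genes of the 89, picked after their values were seen, show other functions. Mtfp1, a factor of mitochondrial fission, was at 8.65, 8.38 and 8.72 in the livers labelled knockout, against 10.60, 10.31 and 10.57 in control livers (-1.91, adjusted p = 0.000239). Asrgl1, an asparaginase, was at 5.95, 6.20 and 7.21, against 9.25, 9.05 and 9.15 (-2.70, adjusted p = 0.00279). Bmf, a proapoptotic BH3-only gene, differed by -1.92, and the cell cycle inhibitor gene Cdkn1b by -0.97. Hpgd, which inactivates prostaglandins, was at 12.13, 11.93 and 11.58, against 12.87, 13.37 and 12.80 (-1.13, adjusted p = 0.0187), and Abat, which breaks down GABA, differed by -0.69. Nox4, an NADPH oxidase gene, differed by -0.89. On the higher side, Cav1, the gene of caveolin 1, was at 9.28, 9.30 and 9.45, against 7.94, 8.19 and 7.68 (1.41, adjusted p = 0.00571), Kcnk1, a potassium channel gene, differed by 2.41, and Fmo2, a flavin monooxygenase gene, by 1.71. In each gene named here the groups did not overlap.

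**Figure D3:**
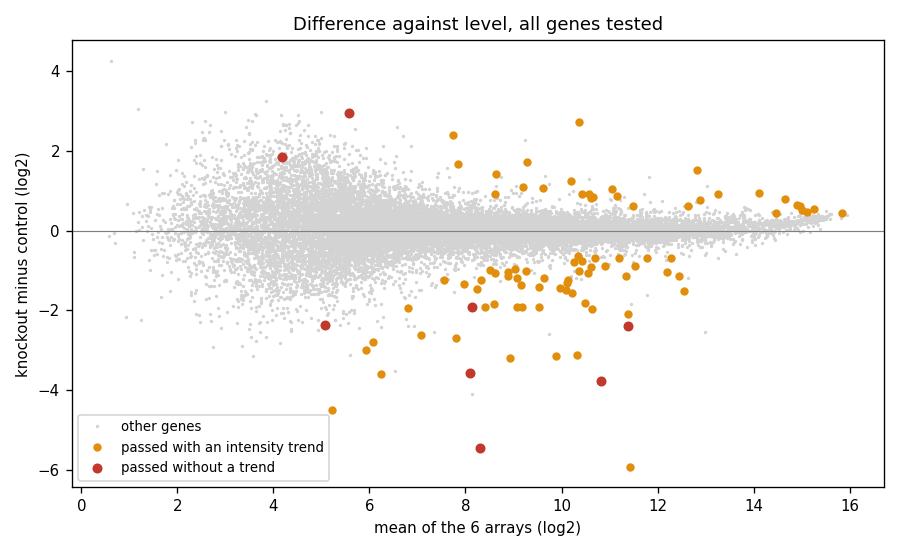
Knockout-labelled minus control difference (log2) of each of the 18193 genes against its mean level over the 6 arrays (log2); grey points are other genes, orange points passed with an intensity trend, and red points are the 8 that passed without one. The cloud is wide among dim genes and narrow among bright ones, and most coloured points lie below 0.

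Quantile normalization changed the brightest genes most. Of the 182 genes in the top 1% by level, 175 had a positive difference as deposited (96.2%), with a median of 0.25, and their groups did not overlap in 69.2%. After quantile normalization 42.3% were positive, the median was -0.01, and 24.7% did not overlap. In the dimmest 10% the median was 0.12 as deposited and -0.01 after it, and over all genes 0.03 and 0.02. Among the groups of 10%, the dimmest and the next moved most, with 0.18 as deposited and 0.07 after it in the next, and the brightest 10% had 0.04 as deposited and -0.01 after it. On the arrays, the 99th percentile over tested genes was 14.56, 14.54 and 14.54 in knockout-labelled livers, against 14.31, 14.44 and 14.42 in controls. The hybridisation controls, transcripts of bacterial and phage genes added in equal amounts at hybridisation, averaged 12.91, 12.96 and 12.92, against 12.12, 12.53 and 12.15. Both differences gave an exact two-sided permutation p of 0.1, the smallest that 3 arrays against 3 allow. The part of these array differences in the gene differences was not tested.

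**Figure D4:**
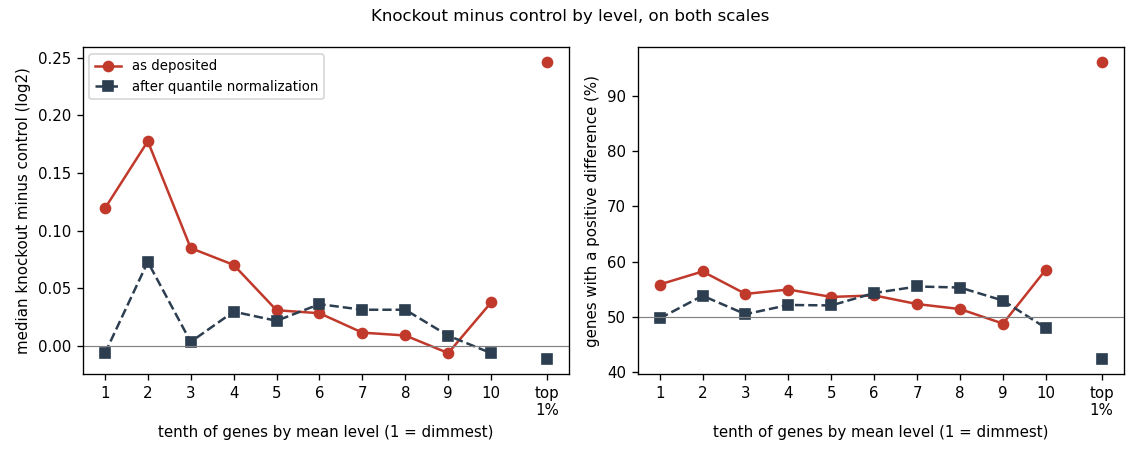
Median knockout-labelled minus control difference (left, log2) and percent of genes with a positive difference (right), for successive groups of 10% of the 18193 genes by mean level, dimmest first, and for the top 1%; circles are as deposited and squares after quantile normalization. The top 1% falls to a median of -0.01 after quantile normalization, against 0.25 as deposited, and to 42.3% positive, against 96.2%.

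Gene groups that are bright in liver followed this shift. Ribosomal protein genes had positive differences in 29 of 33 measured members as deposited, 22 of them without overlap (background 8.42%), with a median of 0.16. After quantile normalization 2 of the 33 lay higher without overlap (background 7.83%) and the median was 0.02. Rps29 illustrates the change, at 15.58, 15.57 and 15.57 in the livers labelled knockout, against 15.27, 15.38 and 15.28 in control livers (0.26 as deposited, -0.06 after quantile normalization). Of 37 respiratory chain genes, 33 were positive as deposited with a median of 0.11, and 16 with a median of -0.02 after quantile normalization. Ndufa4, a subunit of the terminal oxidase, kept a difference of 0.18 without overlap. The 14 plasma carrier genes had a median of 0.24 as deposited (0.12 without control replicate 1) and -0.01 after quantile normalization. Transthyretin (Ttr) differed by 0.41 and 0.05 on these scales. Apolipoprotein and lipid transport genes (23 measured) had medians of 0.16 and 0.00, with 8 members higher without overlap as deposited and 0 after quantile normalization. The deposited median was 0.06 without knockout-labelled replicate 2 and 0.05 with the mean of probe sets. The brightest 25%, where the shares were 12.9% and 10.6%, holds 21 of the 23. Of the 22 coagulation genes, all in the brightest 25%, 5 lay higher and 1 lower without overlap as deposited. After quantile normalization 0 lay higher and 7 lower (6.78% lower over all genes, 9.85% in the brightest 25%), so their direction depends on scale. In these 5 lists 1 gene, Igfals, passed even with the trend.

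Other groups kept their direction on both scales. Of 28 genes of the unfolded protein and integrated stress responses, 21 were positive on each scale, with medians of 0.11 and 0.12, and 8 lay higher without overlap as deposited (all genes 8.42%; brightest 25%, which holds 21 of the 28, 12.9%). Creld2, an endoplasmic reticulum protein gene induced by such stress, was at 10.76, 11.17 and 11.18 in the livers labelled knockout, against 10.27, 10.13 and 9.93 in control livers (0.92, SE 0.18). Dnajb9, a co-chaperone of the endoplasmic reticulum, was at 13.06, 13.49 and 13.26, against 12.40, 12.72 and 12.40 (0.76, SE 0.18). The transcription factor gene Atf4 differed by 0.53 and its target Chac1, a glutathione-degrading enzyme gene, by 0.52, each without overlap on both scales. Creld2 and Dnajb9 passed with the trend (adjusted p = 0.023 and 0.0328), calls lost with 1 array left out (adjusted p up to 0.124 and 0.187), and 0 of the 28 passed without it, with 8 at an unadjusted p under 0.05 (7.28% of all genes). With 1 array left out the median of the list was 0.10 to 0.31, highest without knockout-labelled replicate 1 (0.31) and control replicate 2 (0.24). Of 23 cytosolic chaperone genes, 19 were positive as deposited and 18 after quantile normalization (medians 0.18 and 0.19), and the median was 0.31 without knockout-labelled replicate 1 and 0.06 without replicate 3. Hspb1, the small heat shock protein HSP27, was at 10.56, 11.62 and 11.52, against 9.88, 9.66 and 10.25 (1.30, SE 0.34), and Bag3, a co-chaperone, differed by 0.67. Among 20 hepatocyte transcription factor genes, 14 of them in the brightest 25%, 5 lay higher without overlap on both scales. The share was 6.86% over all genes and 9.23% in the brightest 25%. The 5 were Atf5 (0.92, SE 0.44), Cebpd (0.45), Cebpb (0.38), Cebpg (0.34) and Hnf4a (0.29).

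Genes of fatty acid and triglyceride synthesis (23 measured) had a median difference of 0.31 as deposited and 0.22 after quantile normalization, with 7 and 5 members higher without overlap (all genes 8.42% and 7.83%; brightest 25%, which holds 20 of the 23, 12.9% and 10.6%). The median was 0.15 with the mean of each gene's probe sets and 0.20 without knockout-labelled replicate 2. Acacb, the acetyl-CoA carboxylase at the mitochondrion, was at 9.63, 9.99 and 10.16 in the livers labelled knockout, against 9.55, 8.80 and 9.15 in control livers (0.76, SE 0.25). Thrsp, a lipogenic regulator, was at 15.20, 15.09 and 15.43, against 14.58, 14.49 and 14.70 (0.65, SE 0.15), and it passed with the trend (adjusted p = 0.0197). That call was lost after quantile normalization (0.43, adjusted p = 0.205 with the trend) and with 1 array left out (adjusted p up to 0.0959), and averaging over probe sets gave -0.12. Pklr, the pyruvate kinase of liver, differed by 0.67 (SE 0.26), while Ppargc1a, a coactivator of gluconeogenic and mitochondrial genes, was at 8.30, 7.39 and 8.56, against 9.71, 8.87 and 8.89 (-1.07, SE 0.40). Cholesterol synthesis (20 measured, median 0.05 on each scale) and fatty acid oxidation (23 measured, medians 0.03 and -0.02) each had 1 non-overlapping member, Ebp at -0.17 and Ehhadh at -0.42, both lower. The sign of the cholesterol median depends on single arrays: it was 0.17 without knockout-labelled replicate 1, -0.15 without replicate 2, -0.05 without replicate 3 and -0.11 without control replicate 2. That of fatty acid oxidation was between -0.01 and 0.10. Among 7 adipocyte markers, 6 were positive, with a median of 0.45 (0.40 after quantile normalization, 0.05 without knockout-labelled replicate 2). Their linear sum was 72336, 68309 and 68172, against 50306, 55488 and 47679 in controls, nearly all of it Car3, a carbonic anhydrase gene that male mouse hepatocytes express too (0.45 as deposited, 0.07 after quantile normalization). Without Car3, a choice made after the values were seen, the sums of the other 6 were 1195, 1437 and 761, against 903, 904 and 844, and overlapped. The defining marker Adipoq was at 5.34, 6.10 and 4.48, against 6.22, 5.11 and 3.19. The part of adipocytes in the lipid gene values was not tested.

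Interferon-stimulated genes had mostly negative differences, and 1 control array stood apart in them. Of 31 interferon-stimulated genes, 28 had negative differences, with medians of -0.39 as deposited and -0.37 after quantile normalization, and 4 lay lower without overlap (background 6.36%). Oasl1, of the oligoadenylate synthetase family, was at 7.56, 7.58 and 7.34 in the livers labelled knockout, against 8.12, 8.20 and 8.17 in control livers (-0.67, SE 0.13). Ifit3, an antiviral effector gene, differed by -0.60 (SE 0.25). Summed on the linear scale, the 31 genes gave 50284, 42425 and 40664, against 44736, 72183 and 45281, so control replicate 2 stood above all other livers, and without it the median was -0.18. The major histocompatibility class II genes H2-Eb1, at 8.58, 8.52 and 8.003, against 9.06, 10.21 and 9.11, and H2-Aa (-0.86) were highest in that liver as well. Without it the median of 16 antigen presentation genes was 0.08, against -0.13 with all arrays. None of these interferon and antigen presentation genes passed with or without the trend. Of 29 measured genes of cytokines, chemokines and their receptors, 17 were negative (median -0.15, and -0.05 to -0.19 with 1 array left out). Without overlap, 3 of them lay higher and 1 lower, against 8.42% and 6.36% of all genes. The chemokine gene Ccl9 was at 12.98, 12.74 and 13.11, against 12.24, 12.34 and 12.41 (0.62, adjusted p = 0.0444 with the trend, and up to 0.207 with 1 array left out), and the dim Tnf differed by 2.96.

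Markers of other liver cells were read as lists. Of 15 Kupffer cell and macrophage markers, 14 had negative differences, with a median of -0.24 (-0.13 without control replicate 2 and -0.15 without knockout-labelled replicate 2) and 1 without overlap, Csf1r at -0.39. Their linear sum was 17748 to 22609 in knockout-labelled livers, against 22089 to 30107 in controls. The medians of 13 endothelial and 12 stellate cell markers were both -0.06, and both turned sign with 1 array left out (to 0.01 without control replicate 2 for endothelial cells and 0.05 without knockout-labelled replicate 3 for stellate cells). Of the stellate markers 3 lay lower without overlap as deposited (background 6.36%) and 2 after quantile normalization (6.78%), Hgf, the hepatocyte growth factor gene (-0.81), and Colec11 (-0.42). Cholangiocyte markers (8 measured, all outside the brightest 25%) had a median of 0.28 (0.59 without knockout-labelled replicate 1) and erythroid markers (5 measured) one of 0.44 (0.09 without knockout-labelled replicate 1, 0.86 without control replicate 3). Lymphocyte (12 measured) and neutrophil markers (8 measured) had medians of -0.16 and -0.04. Pancreatic acinar genes summed to 14870 in control replicate 2, against 4147 to 6412 on the other 5 arrays, and their median difference of -1.47 was 0.08 without that array. The part of any of these cell types in the differences above was not tested.

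Lists of genes by position in the lobule and by sex bias held both directions. Of 21 pericentral genes, 14 had negative differences as deposited, with a median of -0.18 (-0.21 after quantile normalization). Axin2, a target and inhibitor of Wnt signalling, was at 6.74, 7.21 and 6.22 in the livers labelled knockout, against 7.81, 7.28 and 7.79 in control livers (-0.90, SE 0.31), while the pericentral Cyp2e1 differed by 0.48. Periportal genes (17 measured) had a median of 0.15 as deposited (0.08 without knockout-labelled replicate 2) and -0.07 after quantile normalization. Male-biased genes, the major urinary proteins among them, were positive in 13 of 16 members, with 6 higher without overlap as deposited (background 8.42%) and 1 after quantile normalization (7.83%), and medians of 0.25 and 0.08 (0.16 as deposited without knockout-labelled replicate 2). Female-biased genes (19 measured) had medians of -0.25 and -0.29 (-0.12 without knockout-labelled replicate 3 and -0.39 without control replicate 3), with Abcd2, a peroxisomal fatty acid transporter, at -2.79 and Fmo2 at 1.71, so the list held both directions. Of 21 genes of keratins and epithelial junctions, 9 had positive differences on each scale, with a median of -0.04 on each. Krt20, a dim keratin gene, differed by 1.71 and lay higher without overlap as deposited only. Lower without overlap on both scales were 4 of the 21 (5.68% of all genes). In the brightest 25%, which holds 14 of the 21, that share was 8.16%. The 4 were Cldn1, the claudin 1 gene (-0.68), Cdh2, N-cadherin (-0.54), Ocln, occludin (-0.42), and Tjp1, the scaffold ZO-1 (-0.18). Hamp2, of the hepcidin family, was at 12.06, 11.38 and 12.66, against 13.32, 13.30 and 13.06 (-1.20, SE 0.34). None of these differences passed without the trend, and Abcd2 and Fmo2 passed with it. The call of Abcd2 was lost after quantile normalization (adjusted p = 0.051 with the trend) and with 1 array left out (adjusted p up to 0.297). That of Fmo2 was kept with 1 array left out (adjusted p up to 0.0216).

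**Figure D5:**
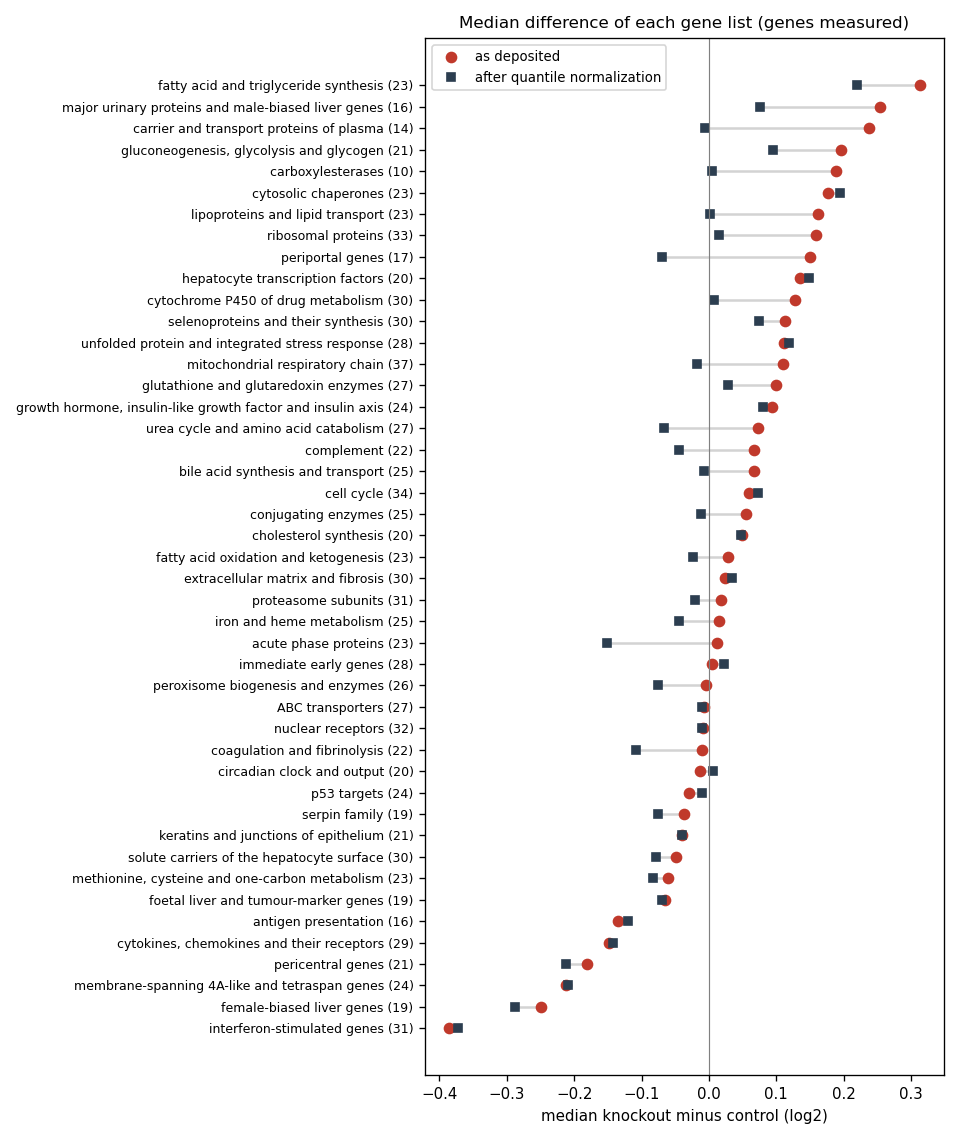
Median knockout-labelled minus control difference (log2) of each function list, with the number of genes measured in brackets; circles are as deposited and squares after quantile normalization, joined by a line. Ribosomal, respiratory chain and plasma carrier genes move to near 0 after quantile normalization, while the interferon-stimulated list (-0.39 and -0.37) and the unfolded protein list (0.11 and 0.12) hardly move.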

How the data were processed

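Total RNA of 6 livers, 100 ng each, was labelled by in vitro transcription and hybridised to Affymetrix mouse arrays (45101 probe sets). The deposited values are on a log2 scale. R 3.0.1 and affy 1.38.1 are named per the submitters' processing notes; the summary, background and normalization steps are not given in the sources used here. On the linear scale, the authors' values have a 2%-trimmed mean of 500 on every liver array. Scanner files were not used here. The number of arrays limits the precision.

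Probe sets naming several genes (932) or without a symbol (9211) and Affymetrix controls were left out. Differences were tested two-sided with lmFit and eBayes of limma 3.58.1 (R 4.3.3; Benjamini-Hochberg over 18193 genes, adjusted p under 0.05), without a filter or block; a difference is the knockout-labelled minus the control mean. Adjusted p-values printed with "trend" come from the fit with an intensity trend. The fit was also run on simulated data.

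The comparison, gene lists and gene rule were chosen with earlier results of these data known. Genes were named if they passed, were among the 15 highest or 15 lowest non-overlapping genes of the brightest 25% on both scales, or had one of the 4 smallest p of a list; further list members and genes named beyond this rule were picked with their values known. Alternatives were quantile normalization, median centring, a replicate block, filters on dim genes, the mean of probe sets, an intensity trend, array weights, a looser threshold and each array left out. The labels give replicate numbers but no pairing of the livers, which are separate mice and were treated as unpaired. Same-numbered deviations correlated at -0.05, 0.01 and 0.00, which does not settle whether livers were handled in pairs. Promoter windows are RefSeq's (GRCm38.p6).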

Additional observations from a re-analysis of the deposited data

Results flagged for a closer look

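The Affymetrix hybridisation controls, 18 probe sets outside the gene comparison, averaged 0.664 higher on the knockout-labelled than on the control liver arrays (log2), and all 3 arrays of one group lay above all 3 of the other. Exact permutation of the arrays gave p = 0.1, the smallest that 3 against 3 allow. The poly-A controls, which are added before labelling, differed by -0.42 (27 probe sets, exact permutation p = 0.5). The 3'-minus-5' signal of Actb, a measure of RNA integrity and labelling, was 1.32, 1.28 and 1.42 on the knockout-labelled arrays, against 1.08, 1.22 and 1.15 on the control arrays (exact permutation p = 0.1), while that of Gapdh differed by -0.01. Whether these differences bear on the gene differences was not tested.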

How the results depend on the processing

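Against 8 genes called, quantile normalization called 2 (0 higher and 2 lower, against 2 and 6), the mean of probe sets 2, a filter on the dimmest 25% of genes 25 and on the dimmest 50% 67, the intensity trend 89, an adjusted p under 0.10 17, median centring 8 and array weights 8. With the replicate block 0 genes were called (1240 at an unadjusted p under 0.05), and with the block and the trend 99. The labels do not say that the numbers pair the livers. Leaving out 1 array gave 0 to 3 genes, 3 without knockout-labelled replicate 3 and 0 without any other; 4173 to 4974 non-overlapping genes and 1301 to 1652 in the brightest 25%, with fewer arrays to overlap. The trend with the mean of probe sets called 43, and with 1 array left out 70, 72 and 55 (knockout-labelled replicates 1 to 3) and 49, 50 and 47 (controls 1 to 3). Fits that combine the trend with another setting were chosen after seeing the data. Quantile normalization turned the sign of Scd1 (-0.0031), Hadh (-0.059), Fabp1 (-0.017), Apoa1 (-0.062), Uqcrb (-0.067), Uox (-0.072), Serpinc1 (-0.024), Plg (-0.10), Vtn (-0.069), Pon1 (-0.010), Rps29 (-0.061), Rpl38 (-0.0094), Fth1 (-0.0052) and Sephs2 (-0.015). The mean of probe sets turned Kcnma1 (0.69), Mvk (0.080), Thrsp (-0.12), Dgat1 (-0.080), Hadh (-0.092), Igf1r (0.038), Tsc22d3 (-0.19), Npas2 (-0.026), Tigar (-0.0099), Psma5 (0.17), Cdh5 (0.22), Eng (-0.078), Ms4a1 (0.15), Car3 (-0.56) and Sephs2 (-0.011). Hba-a1 turned without knockout-labelled replicate 1 (-0.10) and without control replicate 1 (-0.75), with a highest value of 1.19 without control replicate 2. The causes were not tested. With 3 livers per group the smallest exact permutation p for a single value is 0.1, and the median SD within groups was 1.01 in the dimmest 10% of genes and 0.12 in the brightest 10%.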

Other observations

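Some smaller groups have not been described. Of 25 genes of iron and heme metabolism, 3 lay higher and 4 lower without overlap as deposited (all genes 8.42% and 6.36%). After quantile normalization 1 lay higher and 6 lower (7.83% and 6.78%), and 6 of the 25 had positive differences, against 13 as deposited. In the brightest 25%, which holds 20 of the 25, the shares were 12.9% and 9.36%, and 10.6% and 9.85%. As deposited, the lower ones were Hamp2, Hjv (-0.29), which encodes the hepcidin regulator hemojuvelin, Ireb2 (-0.20) and Alad (-0.19), while the iron transporter gene Slc11a2 differed by 0.39. Of 28 immediate early genes, 15 were positive on each scale, with medians of 0.005 and 0.02. Myc (-0.71), Klf10 (-0.66), Egr1 (-0.66) and Nr4a1 (-0.61) lay lower and Jun (0.81) and Zfp36 (0.49) higher, on both scales without overlap. Over all genes 5.68% lay lower and 6.86% higher in this way. Of 30 genes of selenoproteins and their synthesis, Selenow was at 10.32, 10.47 and 10.59 in the livers labelled knockout, against 11.20, 11.49 and 11.39 in control livers (-0.90, SE 0.15, adjusted p = 0.235 with limma, 0.00944 with the intensity trend, 0.0109 with the trend after quantile normalization, and up to 0.0576 with the trend and 1 array left out), while the glutathione peroxidase gene Gpx4 differed by 0.45. Of 27 ABC transporter genes, 3 lay higher and 3 lower without overlap as deposited (all genes 8.42% and 6.36%). After quantile normalization 3 lay higher and 5 lower (7.83% and 6.78%), and the median was -0.01 on each scale. Abcc4 (0.88), an efflux pump of the basolateral membrane, and Abcb1b (1.36) lay higher and Abcd2 (-2.79) lower, without overlap on both scales.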
